A study of Mus musculus with 12 samples.

Results

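The genes described here encode the enzymes of glycolysis, gluconeogenesis and the pentose phosphate pathway, together with the kinases and phosphatases that steer flux between these routes. The list holds 38 genes, set by name with earlier results of these data known, out of 55414 genes in the count table. All 38 passed the filter on low counts that left 13057 genes for testing. They were measured by bulk RNA-seq of 12 libraries. Each came from crypt cells of the small intestine, sorted by flow cytometry from untreated C57BL/6J mice. There are 4 groups of 3 libraries, namely Paneth cells of wild-type mice (WT Paneth), the non-Paneth cells of WT crypts (WT non-Paneth), and both fractions from GRKO mice, in which the glucocorticoid receptor gene Nr3c1 is deleted in epithelial cells that express villin (GRKO Paneth and GRKO non-Paneth). The deletion rests on the villin promoter, so other cells that pass a gate keep the receptor. Paneth cells were gated as CD24+ cKIT+ cells of medium to high side scatter lacking CD31, CD45 and TER119, and for non-Paneth cells no gate was stated in the sources used here. The sample records give neither age nor sex, and the methods describe mice of young adult age. The study counts these samples as its n, but no source ties a library to an animal of its own, so that p-values measure the spread between these libraries.

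Glycolysis splits glucose into pyruvate and yields ATP and NADH, and lactate dehydrogenase can turn the pyruvate into lactate. Gluconeogenesis runs the same route backwards and bypasses the irreversible steps with phosphoenolpyruvate carboxykinase, fructose bisphosphatase and the glucose phosphatase G6pc1. The pentose phosphate pathway draws off glucose phosphate to make NADPH and ribose. In the small intestine, absorptive enterocytes take up dietary glucose and fructose and express ketohexokinase and gluconeogenic enzymes, Paneth cells at the crypt base secrete antimicrobial peptides, and glucocorticoids are known for inducing gluconeogenic genes in liver.

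The libraries held 11126297 to 12758582 counts in WT Paneth, 12511664 to 13965973 in GRKO Paneth, 12890785 to 15369985 in WT non-Paneth and 14713820 to 15910292 in GRKO non-Paneth cells. Lyz1 and the Defa genes, which encode the lysozyme and alpha defensins of Paneth cells, took 37.4% to 46.9% of all counts in the 6 Paneth libraries and at most 0.139% in the others. Levels below are therefore CPM, the counts of a gene scaled to a common library size, after TMM scaling, which divides out such differences in composition, given as mean ± SD with n = 3 per group, and differences are log2 fold changes ± SE from the fit. A gene was called where its adjusted p in edgeR's quasi-likelihood test was under 0.05. The share of all genes whose groups do not overlap was not computed, so statements on overlap are descriptions of the genes named. Nr3c1 had 40.9, 50.4 and 54.1 CPM in WT Paneth and 7.98, 5.82 and 15.4 CPM in GRKO Paneth libraries. In non-Paneth libraries it had 110.4, 126 and 131 CPM in WT and 20.0, 13.1 and 24.5 CPM in GRKO mice, so the genotypes did not overlap in either fraction (-2.31 ± 0.32, adjusted p = 0.0331 in Paneth, -2.67 ± 0.30, adjusted p = 6.66e-05 in non-Paneth cells), the call in Paneth cells being lost without WT Paneth replicate 1 or GRKO Paneth replicate 2. Lyz1 lay between 120161 and 233201 CPM in Paneth libraries and between 102 and 333 CPM in the others.

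The make-up of the non-Paneth fraction also differed between the genotypes. The 10 enterocyte markers, among them the sucrase Sis, the apolipoproteins Apoa1 and Apoa4 and the brush border gene Vil1, summed to 29987 to 30616 CPM in WT non-Paneth and 5952 to 7604 CPM in GRKO non-Paneth libraries, with 5 of 10 called lower and all 10 below 0 in log2 fold change (-2.46 to -1.50). The 6 proliferation markers, such as Mki67, summed to 718 to 814 CPM in WT and 1219 to 1283 CPM in GRKO non-Paneth libraries, and 6 of 6 rose. The 5 tuft cell markers, such as Dclk1, summed to 3.12 to 8.78 and 62.9 to 247 CPM in these groups, and 4 of the 4 tested rose. In Paneth libraries the enterocyte markers summed to 781 to 2702 CPM in WT, with the highest value in replicate 2, and 999.6 to 1466 CPM in GRKO mice, and the tuft markers to 159 to 436 and 405 to 1078 CPM. The 8 Paneth markers summed to 365 to 1132 CPM in WT and 594 to 1135 CPM in GRKO non-Paneth libraries. The 5 stem cell markers, such as Lgr5, summed to 7522 to 8081 CPM in WT and 3887 to 5697 CPM in GRKO Paneth libraries. Of these, 0 were called between the Paneth groups. In non-Paneth libraries they summed to 3463 to 4688 CPM in WT and 4470 to 5789 CPM in GRKO mice. There 3 of 5 rose, where 17.5% of all genes were called higher. Of the goblet markers 2 of 6 fell there, with 19.8% of all genes called lower, and 0 of 5 enteroendocrine markers were called. The immune, endothelial and red cell list stayed at 31.1 CPM or less in every library, with 2 of its 8 genes at 0 throughout. In bulk samples, fewer cells of a type and less RNA per cell cannot be told apart, and the part of these shifts in the results below was not tested.

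The 38 genes together held 0.277% to 0.371% of all counts in the Paneth libraries and 0.911% to 0.9997% in the non-Paneth libraries. To compare levels between genes, CPM were divided by the length of each gene's canonical transcript in kilobases. On this scale Ldha, the lactate dehydrogenase subunit that favours lactate formation, was the most abundant member in WT non-Paneth cells at 869.9 ± 88.1 CPM per kb. It was followed by transaldolase (Taldo1) at 392 ± 13.3 and triosephosphate isomerase (Tpi1) at 367 ± 25.2 CPM per kb, which did not differ beyond their SD. In WT Paneth cells, Taldo1 at 357 ± 14.2 and Ldha at 333 ± 63.8 CPM per kb were the highest and also lay within their SD, ahead of Tpi1 at 167 ± 9.87 and Aldoa at 165 ± 33.9 CPM per kb. At the low end in every group stood Ldhb, the heart-type lactate dehydrogenase subunit, at 0.256 ± 0.107 CPM per kb in WT Paneth and 0.0636 ± 0.0439 CPM per kb in WT non-Paneth cells.

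**Figure D1:**
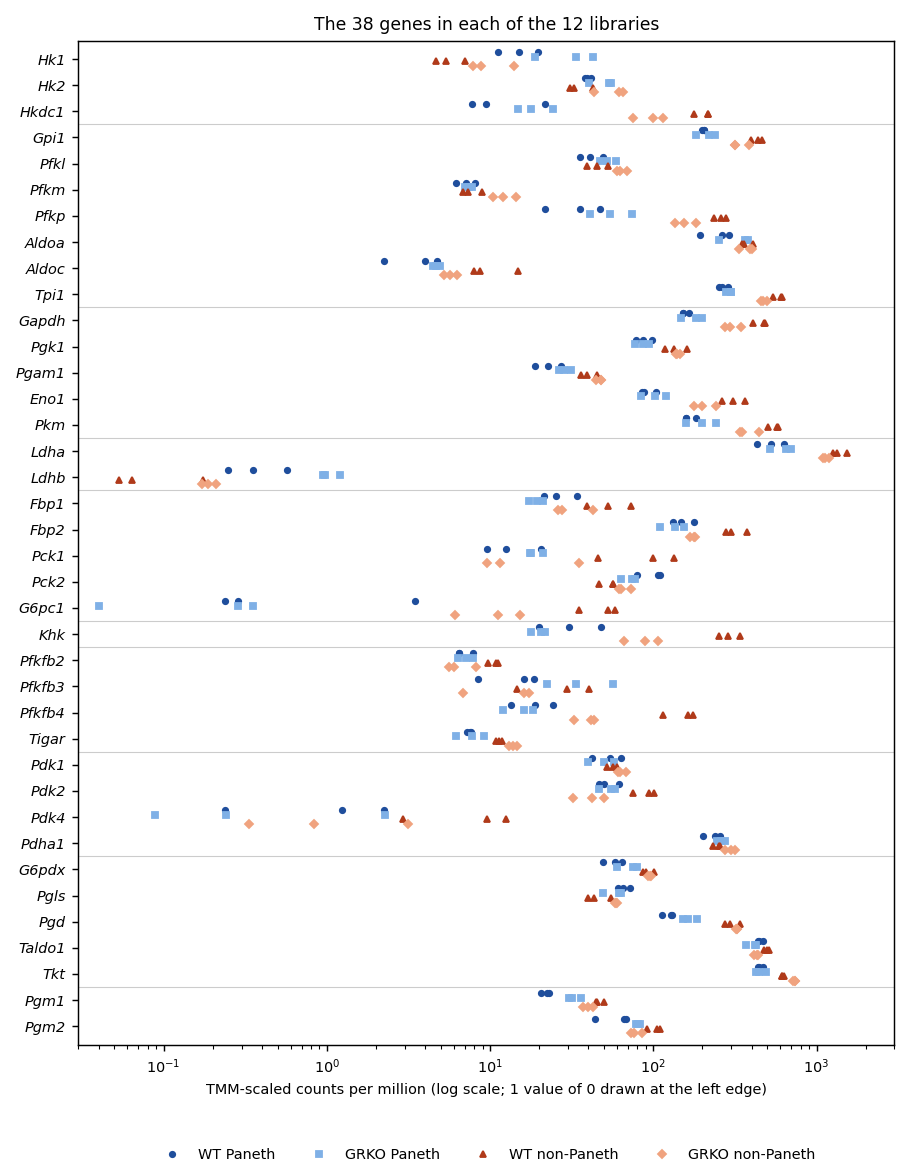
TMM-scaled CPM (log axis) of the 38 genes in each of the 12 libraries, 1 point per library, with grey lines between the functional groups and the single value of 0 (G6pc1) drawn at the left edge. Most genes of lower glycolysis and Hkdc1, Khk, Pfkfb4 and G6pc1 lie further right in non-Paneth libraries (triangles, diamonds), while Taldo1, Pdha1 and Pdk1 lie close together in all groups.

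Some of these levels are limited by what can be counted. Reads that map to several places were not counted by the aligner's gene counts. Only 13.6% of the exonic windows of 100 bases of Pgam1, 15.7% of Gapdh, 18.9% of Pgk1 and 62.8% of Eno1 occur once in the GRCm39 genome. The level of these genes is understated, while a difference between groups rests on the remaining windows. The ranking by CPM per kb above made no allowance for this and may place them too low. Gapdh stood there at 321 ± 27.8 CPM per kb in WT non-Paneth and 110 ± 4.64 CPM per kb in WT Paneth cells. For the other 34 members the share of windows that occur once was at least 85.6%. With windows of 50 bases the lowest of these members were Pkm at 62.0%, Ldha at 68.6% and Tpi1 at 71.9%. Aldoa shares 86.1% of its canonical exons on the same strand with the annotated gene Gm57854, and Pfkfb2 shares 41.2% with Gm29427, so the counts of these members are uncertain. Pgk1, G6pdx and Pdha1 are on the X chromosome, and Xist, the transcript of X inactivation, was present in both libraries of WT replicate 2 (193 CPM in Paneth and 215 CPM in non-Paneth cells, at most 0.428 CPM in the other 10 libraries). In WT non-Paneth cells that replicate had 118 CPM of Pgk1 beside 134 and 161 CPM, 89.6 CPM of G6pdx beside 86.9 and 101 CPM, and 231 CPM of Pdha1 beside 252 and 256 CPM. Xist was thus present in WT libraries alone, so the sexes may not be balanced between the genotypes. The part of sex in the comparisons of genotypes was not tested.

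The first comparison asks how Paneth cells differ from the other crypt cells of WT mice. Of the 38 members, 30 were called, 26 lower and 4 higher in Paneth cells, at a false discovery rate of 5% with edgeR's quasi-likelihood test. Among all 13057 genes tested, 50.7% were called, 26.7% lower and 24.0% higher. The median log2 fold change of the members was -0.90, against 0.01 over all genes. This fit did not pair libraries. With a block on the replicate number, which pairs the WT fractions, 31 members were called, 28 lower and 3 higher. Of all genes, 3680 were then called lower and 3272 higher. With library totals in place of TMM scaling the median of all genes moved to -0.68 and that of the members to -1.61, and 34 members were called lower and 0 higher, against 7895 lower and 1097 higher of all genes, so 0 of the 4 higher members were called higher on that scale. In GRKO mice, 23 members differed between Paneth and non-Paneth cells, 20 lower and 3 higher, where 39.2% of all genes were called, 21.2% lower and 17.9% higher. The median there was -0.54 for the members and -0.08 for all genes, and with library totals -1.51 and -1.05, with 33 members called lower and 1 higher, against 9969 and 816 of all genes. The 21 members called in both comparisons, which share no library, had the same direction in each. Both set Paneth against non-Paneth cells in 1 fit, and the share of all genes that did so was not computed. The agreement is therefore not read as particular to the members. Aldoa, Aldoc, Pck1, Pck2, Pdk2, Pfkfb2, Pgls, Pgm1 and Pgm2 passed the threshold in WT mice alone, and Pfkm and Pfkfb3 in GRKO mice alone, although with the replicate block Pfkfb3 passed in WT mice too, in the opposite direction (-0.93, adjusted p = 0.000107). Whether the difference itself differed by genotype is given by the interaction further on. All 10 enterocyte markers were called lower, and the 4 tuft markers tested and the 5 stem cell markers higher, in WT Paneth cells, and their part in the members' differences was not tested.

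**Figure D2:**
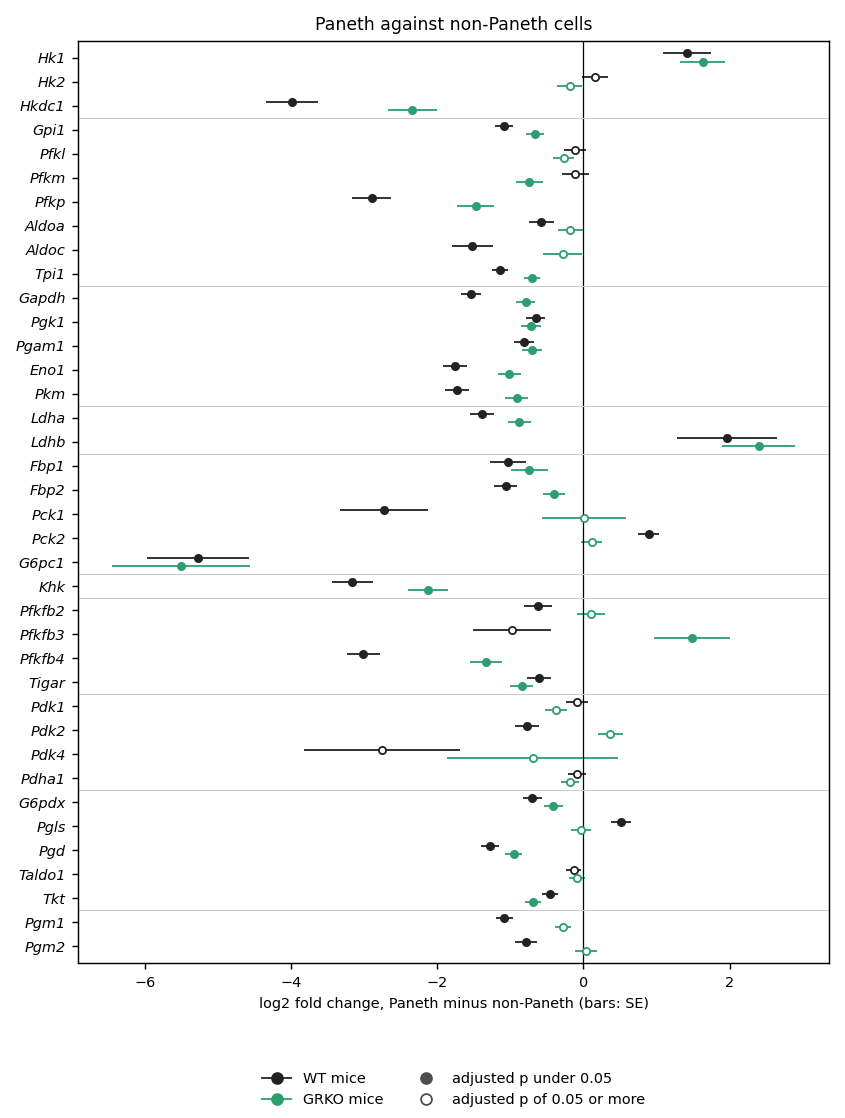
Log2 fold change of each of the 38 genes between Paneth and non-Paneth cells (points, bars are SE) in WT mice (black) and GRKO mice (green), with filled points past an adjusted p of 0.05. In WT mice, 26 filled points lie left of 0, from -5.28 for G6pc1 to -0.46 for Tkt, and 4 right of 0.

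Hexokinases, which trap glucose as glucose phosphate, split by isozyme. Hkdc1, a hexokinase family member expressed in the gut, lies on the minus strand of chromosome 10 from 62218916 to 62258270 (GRCm39), beside Hk1 on chromosome 10 from 62104621 to 62215687. Hkdc1 had 7.70, 21.8 and 9.47 for WT Paneth, 14.8, 24.3 and 17.7 for GRKO Paneth, 217, 215 and 179 for WT non-Paneth and 114, 74.6 and 100.1 for GRKO non-Paneth libraries, in CPM. All Paneth libraries lay below all non-Paneth libraries, with a log2 fold change of -3.99 ± 0.36 in WT (adjusted p = 4.08e-06) and -2.34 ± 0.33 in GRKO mice (adjusted p = 0.000252). Among the WT Paneth libraries, replicate 2, which also held the most enterocyte transcripts of that group, had the highest Hkdc1 level, and without it the WT difference was -4.58. Hk1, the isozyme found in most tissues, went the other way, with 11.1, 15.1 and 19.5 for WT Paneth, 33.4, 42.9 and 18.9 for GRKO Paneth, 4.65, 6.98 and 5.40 for WT non-Paneth and 8.77, 14.1 and 7.85 for GRKO non-Paneth libraries. It was higher in Paneth cells by 1.42 ± 0.33 (adjusted p = 0.00311) in WT and 1.63 ± 0.31 (adjusted p = 0.00116) in GRKO mice. Within each of the 4 groups the libraries ranked the same way for Hk1 as for the summed tuft markers, which were 159, 315 and 436 CPM in WT Paneth, 816, 1078 and 405 CPM in GRKO Paneth, 3.12, 8.78 and 6.15 CPM in WT non-Paneth and 175, 247 and 62.9 CPM in GRKO non-Paneth libraries, and the part of tuft cells in the Hk1 level was not tested. In the GRKO Paneth group this order was not particular to Hk1, being also that of Gpi1, Pfkp, Aldoa, Gapdh, Eno1 and Pkm among others. With library totals the values of Hk1 were 0.71 (adjusted p = 0.0578) and 0.66 (adjusted p = 0.0529). Hk2, the insulin-responsive isozyme, had a difference of 0.16 ± 0.17 in WT (adjusted p = 0.468) and -0.18 ± 0.17 in GRKO mice (adjusted p = 0.42).

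Per kilobase, Hkdc1 made up 90.8% ± 1.48 of the 3 hexokinase transcripts in WT non-Paneth and 73.5% ± 7.26 in GRKO non-Paneth cells, but 28.5% ± 11 in WT Paneth and 28% ± 3.29 in GRKO Paneth cells. In the Paneth groups the isozymes were more even, with 42.3% ± 8.24 for Hk2 and 29.1% ± 7.44 for Hk1 in WT Paneth cells. The shares of the Paneth isozymes depended on the length used, so that Hk2 had 59.1% by CPM without length and 34.0% by unique windows, while Hkdc1 remained between 83.2% and 93.5% in WT non-Paneth cells under the 4 ways of counting (these, the canonical length and the union of exons). Between 3 libraries and 3, an exact permutation test cannot give a p below 0.10, and the shares are given as a description.

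**Figure D3:**
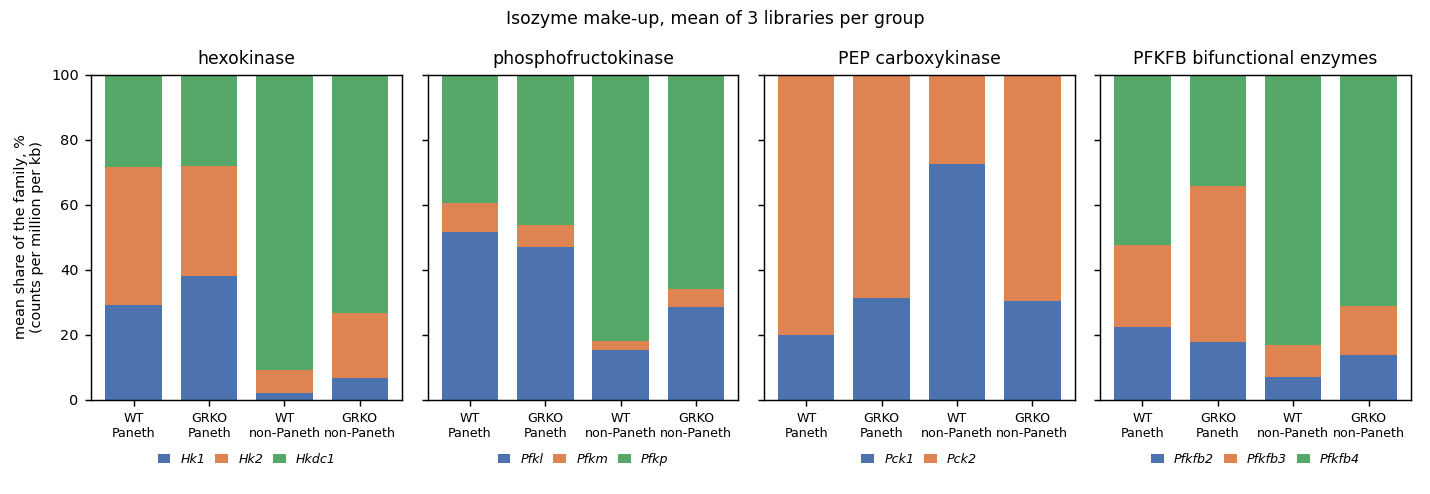
Mean share (%) of each isozyme within 4 enzyme families, from CPM per kilobase, in the 4 groups (bars, n = 3 libraries each). Hkdc1 (90.8%) and Pfkp (82.0%) fill most of their families in WT non-Paneth cells, and Pck1 holds 72.4% of its family only there, against 19.8% to 31.3% in the other groups.

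In upper glycolysis, which runs from glucose phosphate to the triose phosphates, 5 of 7 members were lower in WT Paneth cells and 0 higher. Of all genes, 26.7% were called lower and 24.0% higher. Phosphofructokinase, the committed step, again split by isozyme. The platelet-type gene Pfkp had 21.7, 46.9 and 35.8 for WT Paneth, 53.9, 74.4 and 41 for GRKO Paneth, 237, 258 and 279 for WT non-Paneth and 182, 154 and 135 for GRKO non-Paneth libraries, in CPM, and every Paneth library was below every non-Paneth library. The difference was -2.90 ± 0.27 in WT (adjusted p = 1.83e-06) and -1.48 ± 0.26 in GRKO mice (adjusted p = 0.000592). The liver-type Pfkl and muscle-type Pfkm were not called in WT mice (-0.12 ± 0.15 and -0.11 ± 0.19). In GRKO mice Pfkm was lower at -0.74 ± 0.18 (adjusted p = 0.0043), a call lost without GRKO non-Paneth replicate 1 (adjusted p = 0.0666). As shares of the family per kilobase, Pfkp held 82% ± 3.09 in WT non-Paneth and 39.7% ± 12.4 in WT Paneth cells, and Pfkl held 15.3% ± 2.64 and 51.4% ± 11.4. Triosephosphate isomerase (Tpi1) was lower by 2.20-fold in WT Paneth cells (268 ± 15.9 against 590.1 ± 40.4 CPM, log2 -1.14 ± 0.11, adjusted p = 6.56e-07). Glucose phosphate isomerase (Gpi1) was lower by 2.12-fold (203 ± 3.11 against 431 ± 31.1 CPM, adjusted p = 4.89e-06). Aldolase C (Aldoc), the brain-type isozyme, was low in all groups and lower in WT Paneth cells (3.65 ± 1.26 against 10.5 ± 3.81 CPM, log2 -1.52 ± 0.28, adjusted p = 0.000333), and aldolase A (Aldoa) differed by -0.57 ± 0.17 (adjusted p = 0.0114). The call of Aldoa was lost without WT non-Paneth replicate 3 (adjusted p = 0.0733).

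Lower glycolysis, from glyceraldehyde phosphate to pyruvate, was lower in Paneth cells in 5 of 5 members in both genotypes. Of all genes, 26.7% were called lower in WT and 21.2% in GRKO mice. Enolase (Eno1) had 87.8, 104 and 85.8 for WT Paneth, 103, 119 and 84.5 for GRKO Paneth, 309, 265 and 366 for WT non-Paneth and 242, 199 and 177 for GRKO non-Paneth libraries, in CPM. Pyruvate kinase (Pkm), the final step, had 159.6, 183 and 158 for WT Paneth, 200.1, 243 and 159.5 for GRKO Paneth, 584, 501 and 571 for WT non-Paneth and 445, 340.2 and 351 for GRKO non-Paneth libraries. Glyceraldehyde phosphate dehydrogenase (Gapdh), often used as a reference gene, had 153, 164 and 153 for WT Paneth, 183, 198 and 148 for GRKO Paneth, 478, 411 and 480.4 for WT non-Paneth and 343, 294 and 277 for GRKO non-Paneth libraries. For each of these genes the Paneth libraries of a genotype lay below its non-Paneth libraries. The WT differences were -1.76 ± 0.17 for Eno1 (adjusted p = 4.12e-07), -1.73 ± 0.16 for Pkm (adjusted p = 3.56e-07) and -1.54 ± 0.14 for Gapdh (adjusted p = 2.06e-07), and those in GRKO mice -1.01 ± 0.16, -0.92 ± 0.16 and -0.79 ± 0.13. Phosphoglycerate kinase (Pgk1) and phosphoglycerate mutase (Pgam1) differed by -0.65 ± 0.13 and -0.81 ± 0.14 in WT mice, and by -0.71 ± 0.13 and -0.70 ± 0.14 in GRKO mice.

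Ldha was lower in Paneth cells, with 529 ± 101 CPM in WT Paneth against 1381 ± 139.9 CPM in WT non-Paneth cells (log2 -1.39 ± 0.16, adjusted p = 3.55e-06) and 619 ± 93.3 against 1137 ± 44.8 CPM in GRKO mice (-0.88 ± 0.16, adjusted p = 0.00044). Ldhb was barely detected, with 11 counts over the WT Paneth, 31 over the GRKO Paneth, 5 over the WT non-Paneth and 13 over the GRKO non-Paneth libraries. In CPM it had 0.570, 0.248 and 0.355 for WT Paneth, 1.21, 0.970 and 0.947 for GRKO Paneth, 0.0637, 0.175 and 0.0535 for WT non-Paneth and 0.186, 0.210 and 0.172 for GRKO non-Paneth libraries. It was higher in Paneth cells of GRKO mice, by 2.40 ± 0.50 (adjusted p = 0.00146). In WT mice the value was 1.96 ± 0.68 (adjusted p = 0.0258), which was not called with the replicate block (adjusted p = 0.062), with DESeq2 (adjusted p = 0.0556) or without WT Paneth replicate 1 or WT non-Paneth replicates 1 or 3 (adjusted p from 0.0603 to 0.148), and without WT non-Paneth replicate 2 it was 2.72.

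Of the 5 gluconeogenic members, 4 were lower and 1 was higher in WT Paneth cells, where 26.7% of all genes were called lower and 24.0% higher. G6pc1, the catalytic subunit of the phosphatase that releases free glucose, had 33 counts over the WT Paneth, 28 of them in replicate 2, and 7 over the GRKO Paneth libraries, against 2475 and 734 in the non-Paneth groups. Its CPM were 0.285, 3.47 and 0.237 for WT Paneth, 0, 0.353 and 0.284 for GRKO Paneth, 58.2, 52.4 and 35.2 for WT non-Paneth and 15.2, 6.12 and 11.3 for GRKO non-Paneth libraries. The WT difference was -5.28 ± 0.70 (adjusted p = 0.000165), or -7.49 without WT Paneth replicate 2, and that in GRKO mice -5.50 ± 0.94 (adjusted p = 0.00133). Fructose bisphosphatase genes Fbp1 and Fbp2, neighbours on the minus strand of chromosome 13, were lower at -1.03 ± 0.24 and -1.06 ± 0.15 in WT mice (adjusted p = 0.0031 and 3.69e-05). In GRKO mice they were lower at -0.74 ± 0.25 and -0.40 ± 0.15 (adjusted p = 0.0296 and 0.0486), calls lost for Fbp1 without GRKO Paneth replicates 1, 2 or 3 or GRKO non-Paneth replicates 1 or 2 (adjusted p from 0.0509 to 0.237) and for Fbp2 without GRKO Paneth replicates 2 or 3 or GRKO non-Paneth replicates 1, 2 or 3 (adjusted p from 0.0906 to 0.241). The muscle-type Fbp2 held 84.4% of the pair per kilobase in WT Paneth and 84.8% in WT non-Paneth cells, and 69.5% and 70.2% with the union of all annotated exons as the length.

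The pair of phosphoenolpyruvate carboxykinases differed in opposite directions between the fractions of WT mice. Pck1, the cytosolic enzyme and a classic glucocorticoid target in liver, had 9.60, 20.5 and 12.5 for WT Paneth, 17.8, 17.5 and 21.1 for GRKO Paneth, 99.9, 134 and 45.8 for WT non-Paneth and 9.56, 11.5 and 35.2 for GRKO non-Paneth libraries, in CPM. Its WT difference was -2.72 ± 0.60 (adjusted p = 0.00464), and in GRKO mice the groups overlapped, at 0.00 ± 0.57 (adjusted p = 0.998). Pck2, the mitochondrial enzyme, had 107, 111 and 79.2 for WT Paneth, 77.4, 63.7 and 73.8 for GRKO Paneth, 56.3, 46.7 and 56.5 for WT non-Paneth and 63.7, 61.4 and 73.2 for GRKO non-Paneth libraries. It was higher in WT Paneth cells by 0.90 ± 0.14 (adjusted p = 9.11e-05), and with library totals the value was 0.19 (adjusted p = 0.281). Pck1 made up 72.4% ± 12.7 of the pair per kilobase in WT non-Paneth cells and 19.8% ± 5.66 in WT Paneth cells, and the libraries of these groups did not overlap (75.5, 83.3 and 58.5% against 13.5, 24.4 and 21.6%).

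Ketohexokinase (Khk), which phosphorylates fructose, had 30.5, 48 and 20.0 for WT Paneth, 20.6, 17.8 and 21.8 for GRKO Paneth, 340.4, 253 and 286 for WT non-Paneth and 107, 66.5 and 89.3 for GRKO non-Paneth libraries, in CPM. It was lower in Paneth cells by 8.93-fold in WT (log2 -3.16 ± 0.28, adjusted p = 1.25e-06) and by 4.37-fold in GRKO mice (log2 -2.13 ± 0.27, adjusted p = 6.33e-05). Of the bifunctional PFKFB enzymes, which set the level of the phosphofructokinase activator fructose bisphosphate, Pfkfb4 had 18.8, 24.1 and 13.5 for WT Paneth, 12, 16.1 and 18.3 for GRKO Paneth, 164, 176 and 115 for WT non-Paneth and 41.7, 32.5 and 43 for GRKO non-Paneth libraries. It was lower in Paneth cells by 8.06-fold in WT mice (log2 -3.01 ± 0.23, adjusted p = 9.44e-08) and 2.51-fold in GRKO mice (log2 -1.33 ± 0.22, adjusted p = 0.000286). Pfkfb2, at 10.9 CPM or less in all but 1 library, was lower at -0.62 ± 0.19 in WT mice (adjusted p = 0.0126), a call lost without WT non-Paneth replicates 2 or 3 (adjusted p from 0.0724 to 0.0784). Pfkfb3, the inducible isozyme with high kinase activity, was higher in Paneth cells of GRKO mice by 1.49 ± 0.52 (adjusted p = 0.0476), a call lost without GRKO Paneth replicates 1 or 2 or GRKO non-Paneth replicates 1, 2 or 3 (adjusted p from 0.0557 to 0.162), and with library totals (adjusted p = 0.349). The phosphatase Tigar, a p53-induced gene that lowers the same activator, was lower in Paneth cells of both genotypes (-0.61 ± 0.16, adjusted p = 0.00619, and -0.84 ± 0.16, adjusted p = 0.00069).

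Around pyruvate dehydrogenase, which feeds pyruvate into the citric acid cycle, 1 of 4 members was called in WT and 0 of 4 in GRKO mice (2 at an unadjusted p under 0.05 by edgeR in each). Of all 13057 genes, 50.7% and 39.2% were called, and 7377 and 6180 had such an unadjusted p. The kinase Pdk2, an inhibitor of the complex, had 62, 50.1 and 46.3 for WT Paneth, 46.3, 55 and 58.5 for GRKO Paneth, 101, 94.7 and 75.3 for WT non-Paneth and 42.1, 32.1 and 49.9 for GRKO non-Paneth libraries and was lower in WT Paneth cells at -0.77 ± 0.17 (adjusted p = 0.00142), while in GRKO mice the fractions overlapped (0.36 ± 0.17, adjusted p = 0.103). Pdk4, the fasting-induced kinase, had 1.24, 2.23 and 0.237 for WT Paneth, 0.242, 0.0882 and 2.27 for GRKO Paneth, 9.55, 12.5 and 2.94 for WT non-Paneth and 0.839, 0.336 and 3.15 for GRKO non-Paneth libraries. Its spread within groups was wide. All WT Paneth lay below all WT non-Paneth libraries, and the value of -2.75 ± 1.07 did not pass the threshold (adjusted p = 0.0567) but did with the replicate block, whose numbers pair the WT fractions (adjusted p = 8.28e-07), and with DESeq2 (adjusted p = 0.0435). Pdk1 and the catalytic subunit gene Pdha1 had WT values of -0.09 ± 0.15 and -0.09 ± 0.12 and were called in no comparison.

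In the pentose phosphate pathway, the NADPH-producing enzymes were lower in Paneth cells of both genotypes. Phosphogluconate dehydrogenase (Pgd) had 124 ± 9.42 CPM in WT Paneth against 302 ± 32.2 CPM in WT non-Paneth cells (log2 -1.28 ± 0.12, adjusted p = 4.61e-07) and 167 ± 17.5 against 324 ± 2.07 CPM in GRKO mice (-0.95 ± 0.12, adjusted p = 1.78e-05). The entry enzyme G6pdx differed by -0.70 ± 0.13 in WT (adjusted p = 0.000451) and -0.41 ± 0.13 in GRKO mice (adjusted p = 0.0219), the latter lost without GRKO Paneth replicate 3 or GRKO non-Paneth replicates 1, 2 or 3 (adjusted p from 0.102 to 0.133). Transketolase (Tkt), of the non-oxidative branch, was lower at -0.46 ± 0.11 and -0.69 ± 0.11 (adjusted p = 0.00219 and 0.000128). Taldo1, of the same branch, had 451 ± 18, 406 ± 29.9, 496 ± 16.8 and 430.0 ± 12.3 CPM in WT Paneth, GRKO Paneth, WT non-Paneth and GRKO non-Paneth cells and was called in no comparison. The lactonase Pgls was higher in WT Paneth cells by 0.52 ± 0.14 (adjusted p = 0.00583), but with library totals its value turned to -0.18 (adjusted p = 0.342). The phosphoglucomutase Pgm1, which links glycogen to glycolysis, and Pgm2 were lower in WT Paneth cells at -1.08 ± 0.12 and -0.79 ± 0.15 (adjusted p = 1.95e-06 and 0.000439). They had values of -0.28 ± 0.11 and 0.04 ± 0.15 in GRKO mice, where neither was called.

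The next comparison asks what loss of the receptor changed in the non-Paneth fraction. It shares the WT non-Paneth libraries with the first comparison. Here 20 of 38 members were called, 16 lower and 4 higher in GRKO mice, where 37.3% of all genes were called, 19.8% lower and 17.5% higher. The median log2 fold change was -0.30 for the members and 0.02 for all genes. Of the members called, those that fell most were Pck1, G6pc1, Pfkfb4 and Khk, by over 3-fold each, and the 4 that rose were Hk2, Pfkl, Pfkm and Pgls. With library totals the median of all genes was 0.31 and that of the members -0.01, with 19 members called, 12 higher and 7 lower, against 4345 and 1478 of all genes, so that the direction of small changes is relative to other genes. The enterocyte, proliferation and tuft markers given above moved in this comparison, and their part in the members' changes was not tested.

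**Figure D4:**
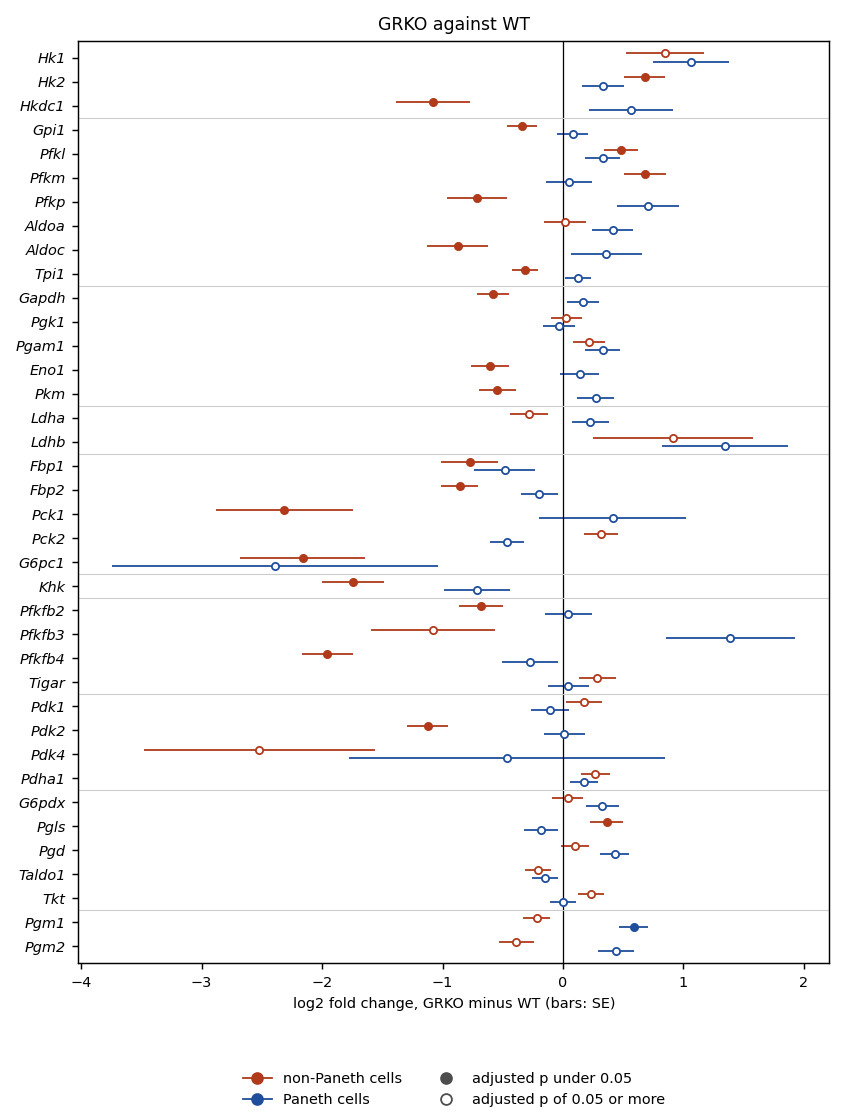
Log2 fold change of each of the 38 genes in GRKO against WT mice (points, bars are SE) in non-Paneth cells (red) and Paneth cells (blue), with filled points past an adjusted p of 0.05. Non-Paneth cells show 16 filled points left of 0 and 4 right of it, and Paneth cells show 1, Pgm1 at 0.59.

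Pck1 fell from 99.9, 134 and 45.8 CPM in WT to 9.56, 11.5 and 35.2 CPM in GRKO non-Paneth libraries, without overlap, by 4.97-fold (log2 -2.31 ± 0.57, adjusted p = 0.0123). The call was lost in a fit on only these 6 libraries (adjusted p = 0.0655). Replicate 3 was the lowest of the WT and the highest of the GRKO libraries, and without GRKO non-Paneth replicate 3 the value was -3.20. G6pc1 fell from 58.2, 52.4 and 35.2 to 15.2, 6.12 and 11.3 CPM (log2 -2.16 ± 0.52, adjusted p = 0.0096), Pfkfb4 from 164, 176 and 115 to 41.7, 32.5 and 43 CPM (-1.96 ± 0.21, adjusted p = 2.50e-05) and Khk from 340.4, 253 and 286 to 107, 66.5 and 89.3 CPM (-1.74 ± 0.26, adjusted p = 0.000332). In each of them the lowest WT library lay above the highest GRKO library. The enterocyte markers, which summed to 30616, 30214 and 29987 CPM in the WT and 7119, 5952 and 7604 CPM in the GRKO libraries, were also separated. Pdk2 fell by 2.18-fold (-1.12 ± 0.17, adjusted p = 0.000173), while for Pdk4 the value of -2.52 ± 0.96 did not pass the threshold (adjusted p = 0.0662).

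**Figure D5:**
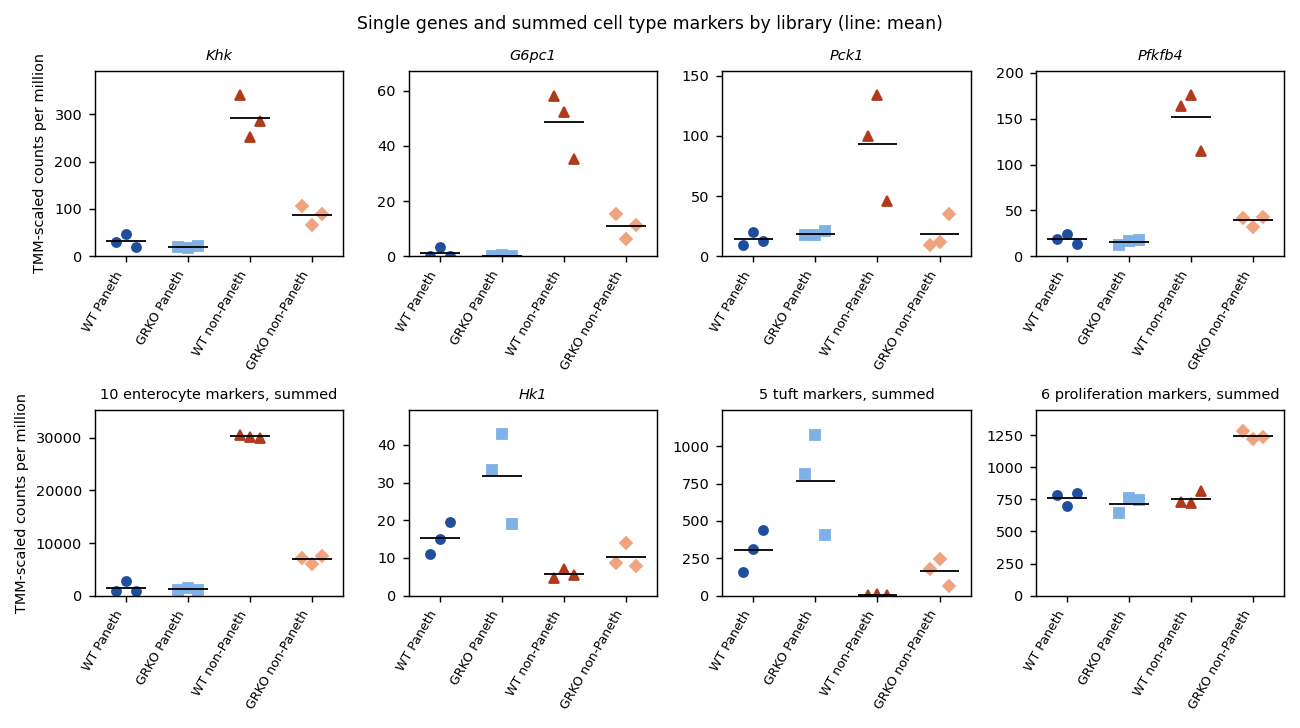
TMM-scaled CPM in each library (points, line at the mean of 3) for Khk, G6pc1, Pck1, Pfkfb4 and Hk1 and for summed markers of enterocytes, tuft cells and proliferation. Khk, G6pc1, Pck1, Pfkfb4 and the enterocyte markers are highest in WT non-Paneth and lower in GRKO non-Paneth libraries, Hk1 and the tuft markers are highest in GRKO Paneth replicate 2, and the proliferation markers are highest in GRKO non-Paneth libraries.

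Because these 4 members fell together, the 250 bases before their transcription start are shown, from the RefSeq promoter table of build GRCm38.p6. They were searched on both strands for AGAACA, a single arm of the glucocorticoid receptor element, for ACGTG, the core bound by hypoxia inducible factors, and for CACGTG, the E box, which contains ACGTG on both strands. Matches are in capitals, and all 4 are on the plus strand, 5′ to 3′, ending at the base before the start.
Pck1 (chr2:173152823-173153072): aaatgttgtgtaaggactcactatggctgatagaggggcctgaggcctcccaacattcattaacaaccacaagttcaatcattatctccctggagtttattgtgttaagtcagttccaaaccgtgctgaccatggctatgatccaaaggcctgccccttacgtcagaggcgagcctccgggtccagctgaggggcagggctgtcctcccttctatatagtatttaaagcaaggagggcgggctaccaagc
G6pc1 (chr11:101367466-101367715): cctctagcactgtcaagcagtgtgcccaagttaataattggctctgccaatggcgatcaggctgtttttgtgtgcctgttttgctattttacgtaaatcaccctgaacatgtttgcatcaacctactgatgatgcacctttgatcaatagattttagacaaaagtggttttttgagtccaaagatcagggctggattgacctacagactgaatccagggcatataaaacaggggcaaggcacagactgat
Khk (chr5:30921309-30921558): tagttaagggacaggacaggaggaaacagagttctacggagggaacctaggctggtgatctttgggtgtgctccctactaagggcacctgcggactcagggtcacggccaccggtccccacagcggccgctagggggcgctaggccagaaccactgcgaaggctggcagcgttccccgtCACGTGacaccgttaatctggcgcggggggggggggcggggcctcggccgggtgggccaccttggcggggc
Pfkfb4 (chr9:108991652-108991901): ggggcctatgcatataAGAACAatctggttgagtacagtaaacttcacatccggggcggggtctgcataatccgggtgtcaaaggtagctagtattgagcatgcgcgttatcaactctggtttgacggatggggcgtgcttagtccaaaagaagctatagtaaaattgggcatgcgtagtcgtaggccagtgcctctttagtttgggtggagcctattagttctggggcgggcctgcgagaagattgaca
The Khk window holds 1 E box with its ACGTG, and the Pfkfb4 window holds 1 AGAACA, while none of these letters are in the windows of Pck1 and G6pc1. Sequence beyond these 250 bases was not searched, so a lack of matches does not show that a gene has no receptor element. All 38 members matched the table, with 55 promoters. AGAACA was in at least 1 promoter of 9 of 38 members (23.7%) and of 18.2% of 27025 genes, ACGTG in 14 members (36.8%) and 18.5% of genes, and CACGTG in 7 members (18.4%) and 6.86% of genes. Among the 16 members that fell in GRKO non-Paneth cells, 4 held AGAACA, 5 ACGTG and 4 CACGTG. Members have more promoters per gene than the table as a whole, where 16.1% of 32851 single promoters held AGAACA, 16.6% ACGTG and 6.02% CACGTG, and the matches are a description of letters only.

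Hexokinases changed in both directions in non-Paneth cells. Hkdc1 fell by 2.11-fold (-1.08 ± 0.31, adjusted p = 0.0191). Hk2 had 39.4, 41.3 and 38.1 for WT Paneth, 40.6, 55.4 and 53.6 for GRKO Paneth, 30.9, 42.9 and 32.5 for WT non-Paneth and 65.5, 61.8 and 43.1 for GRKO non-Paneth libraries, in CPM, and rose by 0.68 ± 0.17 (adjusted p = 0.00594), with the lowest GRKO library just above the highest WT library. Without GRKO non-Paneth replicate 1 (adjusted p = 0.050032) its call was narrowly lost. Hk1 had a value of 0.85 ± 0.32, which did not pass the threshold (adjusted p = 0.0554) but did with DESeq2 (adjusted p = 0.0357) and library totals (adjusted p = 0.00922), with all 3 GRKO above all 3 WT non-Paneth libraries. In phosphofructokinase, Pfkp fell by 0.71 ± 0.25 (adjusted p = 0.0389), whereas Pfkl and Pfkm rose. Pfkl had 49.2, 35.8 and 41.1 for WT Paneth, 52.2, 59.4 and 47 for GRKO Paneth, 52.6, 39 and 45.3 for WT non-Paneth and 68.9, 59.6 and 62.9 for GRKO non-Paneth libraries. Pfkm had 7.13, 6.19 and 8.05 for WT Paneth, 7.38, 7.76 and 7.01 for GRKO Paneth, 8.98, 7.33 and 6.79 for WT non-Paneth and 14.5, 10.4 and 12.1 for GRKO non-Paneth libraries. Their changes were 0.48 ± 0.14 (adjusted p = 0.0156) and 0.68 ± 0.17 (adjusted p = 0.00674), and both were higher in all 3 GRKO than in all 3 WT non-Paneth libraries. Calls were lost for Pfkp without GRKO non-Paneth replicates 2 or 3 or WT non-Paneth replicates 2 or 3 (adjusted p from 0.0551 to 0.0773), for Pfkl without GRKO non-Paneth replicates 1 or 3 or WT non-Paneth replicates 2 or 3 (adjusted p from 0.0584 to 0.139) and for Pfkm without GRKO non-Paneth replicate 1 or WT non-Paneth replicate 3 (adjusted p from 0.0531 to 0.068).

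As shares per kilobase, Hkdc1 went from 90.8% ± 1.48 of the hexokinases in WT to 73.5% ± 7.26 in GRKO non-Paneth cells, and Hk2 from 7.14% ± 1.08 to 19.8% ± 4.52. Pfkp went from 82% ± 3.09 to 66.1% ± 2.58 and Pfkl from 15.3% ± 2.64 to 28.4% ± 2.19. Pck1 went from 72.4% ± 12.7 to 30.2% ± 13.4 of the carboxykinase pair. In all of these the libraries of WT and GRKO non-Paneth cells did not overlap.

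Smaller decreases were found along the trunk of glycolysis. Gapdh fell by 0.58 ± 0.13 on the log2 scale (adjusted p = 0.00311), Eno1 fell by 0.60 ± 0.16 (adjusted p = 0.00811) and Pkm fell by 0.54 ± 0.15 (adjusted p = 0.0126), with no overlap of the genotypes. Tpi1 had 254, 285 and 264 for WT Paneth, 298, 299.6 and 278 for GRKO Paneth, 619, 544 and 608 for WT non-Paneth and 498, 454 and 470.2 for GRKO non-Paneth libraries, in CPM. Gpi1 had 206, 204 and 199.6 for WT Paneth, 221, 240.1 and 184 for GRKO Paneth, 460.4, 399 and 435 for WT non-Paneth and 387, 316 and 318 for GRKO non-Paneth libraries. Both were lower in all 3 GRKO than in all 3 WT non-Paneth libraries, and Tpi1 fell by 0.32 ± 0.11 (adjusted p = 0.0346) and Gpi1 fell by 0.34 ± 0.13 (adjusted p = 0.047). Aldoc had 3.99, 4.70 and 2.25 for WT Paneth, 4.47, 4.94 and 4.64 for GRKO Paneth, 14.9, 7.97 and 8.66 for WT non-Paneth and 6.29, 5.66 and 5.22 for GRKO non-Paneth libraries and fell by 0.87 ± 0.25 (adjusted p = 0.0142). With library totals none of these 6 was called, with values from -0.59 for Aldoc to -0.03 for Tpi1 and adjusted p from 0.076 to 0.874, each below the median of all genes of 0.31. Single libraries also decided the calls of Gpi1, lost without GRKO non-Paneth replicates 2 or 3 or WT non-Paneth replicate 1 (adjusted p from 0.0753 to 0.0934), of Tpi1, lost without GRKO non-Paneth replicate 2 (adjusted p = 0.0611), and of Aldoc, lost without WT non-Paneth replicate 1 (adjusted p = 0.0797). Pgk1, Pgam1, Aldoa and Ldha were not called, with values of 0.03 ± 0.13, 0.21 ± 0.14, 0.02 ± 0.17 and -0.28 ± 0.16.

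Fructose bisphosphatases fell with the other gluconeogenic genes. Fbp1 had 25.4, 34 and 21.5 for WT Paneth, 21, 19.5 and 17.3 for GRKO Paneth, 72.6, 53.1 and 39.5 for WT non-Paneth and 42.8, 27.4 and 26.2 for GRKO non-Paneth libraries, in CPM. Fbp2 had 133, 178 and 147 for WT Paneth, 155, 135 and 109 for GRKO Paneth, 376, 301 and 278 for WT non-Paneth and 181, 178 and 168 for GRKO non-Paneth libraries. Fbp2 fell by 0.86 ± 0.15 (adjusted p = 0.000624) without overlap of the genotypes. For Fbp1, which overlapped, the change was -0.78 ± 0.24 (adjusted p = 0.0205), and it was not called with library totals (adjusted p = 0.0724) or without GRKO non-Paneth replicates 2 or 3 or WT non-Paneth replicate 1 (adjusted p from 0.0545 to 0.0633). Pck2 went against this group, with a value of 0.32 ± 0.14 (adjusted p = 0.0933). Pfkfb2 had 6.46, 6.44 and 7.81 for WT Paneth, 7.13, 7.85 and 6.34 for GRKO Paneth, 9.74, 10.9 and 11.2 for WT non-Paneth and 8.25, 5.62 and 5.99 for GRKO non-Paneth libraries and fell by 0.68 ± 0.18 (adjusted p = 0.00825, with library totals 0.118). In the pentose phosphate pathway, 1 of 5 members was called, where 37.3% of all genes were called. Pgls had 71.7, 65.2 and 60.4 for WT Paneth, 63.2, 61.4 and 49.3 for GRKO Paneth, 55.4, 43.1 and 39.6 for WT non-Paneth and 58.5, 59.9 and 59.4 for GRKO non-Paneth libraries and rose by 0.36 ± 0.14 (adjusted p = 0.0477), a call lost with DESeq2 (adjusted p = 0.0947) and without GRKO non-Paneth replicates 1, 2 or 3 or WT non-Paneth replicates 2 or 3 (adjusted p from 0.144 to 0.31). G6pdx, Pgd and Tkt had values of 0.04 ± 0.13, 0.10 ± 0.12 and 0.23 ± 0.11.

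Loss of the receptor left few calls in Paneth cells. Of the 38 members, 1 was called, and it was higher, where 3.22% of all genes were called, 1.7% higher and 1.52% lower. At an unadjusted p under 0.05, edgeR had 13 members and 3492 of all genes. Pgm1 had 20.5, 22.9 and 22.3 for WT Paneth, 30.6, 36.2 and 31.6 for GRKO Paneth, 49.7, 44.9 and 44.5 for WT non-Paneth and 42.8, 37 and 39.8 for GRKO non-Paneth libraries, in CPM, and rose by 0.59 ± 0.12 in GRKO Paneth cells (adjusted p = 0.0411), with all 3 GRKO above all 3 WT Paneth libraries. The call was lost with library totals (adjusted p = 0.059), with a fit on the 6 Paneth libraries alone and without GRKO Paneth replicates 2 or 3 or WT Paneth replicates 1 or 2 (adjusted p from 0.0529 to 0.224). DESeq2 called 6 members, adding Hk1 (1.06 ± 0.31 in edgeR, adjusted p = 0.0695 there and 0.0158 with DESeq2), Pgd (0.43 ± 0.12, adjusted p = 0.0556 and 0.00838), Pck2 (-0.47 ± 0.14, adjusted p = 0.0695 and 0.0255), Pfkp (0.71 ± 0.26, adjusted p = 0.116 and 0.0482) and Khk (-0.71 ± 0.27, adjusted p = 0.127 and 0.049). Without the filter on low counts 9 members were called. The number of all genes called moved as well, from 420 to 1421 with DESeq2 and to 0 in a fit on the 6 Paneth libraries alone, and between 0 and 1619 with 1 library left out, at 0 when GRKO Paneth replicate 2 and 1 when WT Paneth replicate 1 was omitted. The called members that fell most in non-Paneth cells had values of 0.41 ± 0.61 for Pck1, -2.39 ± 1.35 for G6pc1, -0.28 ± 0.23 for Pfkfb4 and -0.71 ± 0.27 for Khk here, and none passed the threshold.

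The interaction asks whether the effect of the deletion differed between the fractions. It was called for 13 of 38 members, 12 with a higher and 1 with a lower value in Paneth than in non-Paneth cells, where 18.7% of all genes were called, 11.5% higher and 7.27% lower. Of the cell type markers, 5 of 5 stem cell, 5 of 6 proliferation and 3 of 4 tuft genes were called lower. Of the enterocyte markers, 3 of 10 were called higher. The part of these shifts in the members' interactions was not tested. For Pfkfb4 the difference was 1.68 ± 0.31 (adjusted p = 0.00285), and for Pdk2 it was 1.14 ± 0.24 (adjusted p = 0.00536). Both calls were kept under every alternative tried. Lower glycolysis had 3 of 5 members called, Gapdh at 0.75 ± 0.19, Eno1 at 0.75 ± 0.23 and Pkm at 0.81 ± 0.22 (adjusted p = 0.0129, 0.0333 and 0.0193), those of Eno1 lost without GRKO Paneth replicates 1 or 2, GRKO non-Paneth replicates 2 or 3, WT Paneth replicates 1 or 3 or WT non-Paneth replicate 3 (adjusted p from 0.0502 to 0.093) and of Pkm without GRKO Paneth replicate 2 (adjusted p = 0.0556). Hkdc1, Pfkp, Aldoc and Fbp2 were called as well, at 0.66 to 1.65. Pgm2 had 43.8, 65.9 and 68.4 for WT Paneth, 78.1, 82.8 and 80.5 for GRKO Paneth, 91.3, 105 and 111 for WT non-Paneth and 85.6, 76.2 and 73.4 for GRKO non-Paneth libraries, in CPM, and for the phosphoglucomutases the differences were 0.80 ± 0.16 for Pgm1 (adjusted p = 0.00439) and 0.83 ± 0.21 for Pgm2 (adjusted p = 0.0147). Pfkfb3 had 8.46, 16.2 and 18.7 for WT Paneth, 33.4, 56.9 and 22.3 for GRKO Paneth, 14.6, 29.6 and 40.6 for WT non-Paneth and 16.1, 17.2 and 6.85 for GRKO non-Paneth libraries. In Paneth cells all 3 GRKO libraries were above all 3 WT libraries, in non-Paneth cells the genotypes overlapped, and the interaction was 2.47 ± 0.74 (adjusted p = 0.048), lost without GRKO Paneth replicates 1 or 2, GRKO non-Paneth replicates 1, 2 or 3, WT Paneth replicates 1, 2 or 3 or WT non-Paneth replicates 2 or 3 (adjusted p from 0.0659 to 0.106). Within the Paneth groups and the GRKO non-Paneth group its libraries ranked as the tuft markers did, and their part was not tested. In the GRKO Paneth group that order was also the order of Gapdh, Eno1 and Pkm, so it was not particular to Pfkfb3. Of the 13, only Pck2 had a negative interaction, at -0.78 ± 0.20 (adjusted p = 0.0154), lost without WT non-Paneth replicate 2 (adjusted p = 0.0501), with values of -0.47 ± 0.14 in Paneth and 0.32 ± 0.14 in non-Paneth cells. For Pck1 the interaction was 2.73 ± 0.82 and did not pass the threshold (adjusted p = 0.0509). With library totals 7 members were called, 4 higher and 3 lower, against 751 and 1836 of all genes, whose median moved to -0.28, and Aldoc, Gapdh, Eno1, Pkm, Fbp2, Pfkfb3, Pgm1 and Pgm2 were not among them. The number was between 7 and 14 with 1 library left out, the lowest number when GRKO Paneth replicate 2 was omitted, and 8 when WT Paneth replicate 3 or GRKO non-Paneth replicate 2 was.

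Other genes of the same routes were taken from lists of 72 genes, of which 65 passed the filter. In WT Paneth against WT non-Paneth cells, 45 were called, 35 lower and 10 higher, where 50.7% of all genes were called, 26.7% lower and 24.0% higher. In GRKO against WT non-Paneth cells 33 were called, 21 lower and 12 higher, where 37.3% of all genes were called, 19.8% lower and 17.5% higher. Of the 8 genes of glucose and lactate transport tested, 6 were lower and 0 higher in WT Paneth cells, and 5 fell and 2 rose in GRKO non-Paneth cells. The glucose transporter of the basolateral membrane and liver, Slc2a2, had 2.27 ± 2.34 CPM in WT Paneth and 127 ± 14.4 CPM in WT non-Paneth cells (-5.88 ± 0.64, adjusted p = 5.03e-05) and 29.4 ± 15.6 CPM in GRKO non-Paneth cells (-2.12 ± 0.47 against WT non-Paneth cells, adjusted p = 0.00735). The fructose transporter Slc2a5 fell from 50.3 ± 7.20 to 14.7 ± 5.70 CPM (-1.77 ± 0.28, adjusted p = 0.000476), the same direction as Khk. The lactate exporter Slc16a3 was lower in WT Paneth cells at -3.94 ± 0.65 (adjusted p = 0.000566).

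Liver-type pyruvate kinase (Pklr), the isozyme of hepatocytes and enterocytes, fell by 1.08 ± 0.16 in GRKO non-Paneth cells (adjusted p = 0.000164) and was lower at -2.18 ± 0.17 in WT Paneth cells (adjusted p = 5.81e-08), the direction of Khk. The fructose and glycerol genes in that direction included triokinase (Tkfc), lower at -2.54 ± 0.16 in WT Paneth cells (adjusted p = 9.51e-09), glycerate kinase (Glyctk), which was lower there at -2.25 ± 0.23 (adjusted p = 8.65e-07) and fell by 1.20 ± 0.20 in GRKO non-Paneth cells (adjusted p = 0.000349), sorbitol dehydrogenase (Sord, -1.03 ± 0.19 in GRKO non-Paneth cells, adjusted p = 0.0007, but -0.11 ± 0.18 in WT Paneth cells, adjusted p = 0.65) and glycerol phosphate dehydrogenases Gpd1 (-1.10 ± 0.15 in GRKO non-Paneth cells, adjusted p = 6.82e-05, and -1.89 ± 0.15 in WT Paneth cells, adjusted p = 7.86e-08) and Gpd2 (-2.35 ± 0.17 in WT Paneth cells, adjusted p = 3.80e-08). Sedoheptulokinase (Shpk), an enzyme tied to the pentose phosphate pathway, fell by 1.09 ± 0.20 (adjusted p = 0.000861) and was lower at -1.96 ± 0.22 in WT Paneth cells (adjusted p = 3.24e-06), and ribokinase (Rbks) was lower there at -0.53 ± 0.20 (adjusted p = 0.0366, lost without any 1 of the 6 libraries compared), while ribose phosphate isomerase (Rpia) rose by 0.62 ± 0.12 in GRKO non-Paneth cells (adjusted p = 0.000921).

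At the entry of pyruvate into mitochondria, the pyruvate carrier Mpc1 fell by 0.48 ± 0.12 (adjusted p = 0.00745, 0.24 with library totals) and the dehydrogenase subunit Dlat rose by 0.61 ± 0.13 (adjusted p = 0.00231) in GRKO non-Paneth cells. In WT Paneth cells Dlat was lower at -0.85 ± 0.14 and the phosphatase Pdp2 at -0.82 ± 0.15 (adjusted p = 0.000101 and 0.000341). In GRKO against WT Paneth cells, 2 of the 65 genes were called, a share near the 3.22% of all genes, with Glyctk at 0.92 ± 0.24 (adjusted p = 0.0492) and Dlat at 0.60 ± 0.14 (adjusted p = 0.0448), both lost with library totals and without WT Paneth replicates 1 or 2 or GRKO Paneth replicates 2 or 3. Among the glycogen genes 3 of 6 were called in WT Paneth cells, all higher, where 50.7% of all genes were called and 24.0% higher. The phosphorylase Pygl had 17.8, 37 and 56.4 for WT Paneth, 105, 122 and 41.4 for GRKO Paneth, 0.382, 0.931 and 0.321 for WT non-Paneth and 21.2, 30.9 and 6.47 for GRKO non-Paneth libraries, in CPM, higher in WT Paneth cells by 6.06 ± 0.95 (adjusted p = 0.000662) and in GRKO than WT non-Paneth cells by 5.15 ± 0.95 (adjusted p = 0.00315). Its Paneth and GRKO non-Paneth libraries ranked as the tuft markers did, whose part was not tested. In the GRKO Paneth group members such as Gapdh and Pkm had that order too. The glycogenin Gyg1 rose by 0.69 ± 0.14 in GRKO non-Paneth cells (adjusted p = 0.00166) and was at 0.40 ± 0.15 in WT Paneth cells (adjusted p = 0.0358), which turned to -0.31 with library totals and was not called without WT Paneth replicates 2 or 3. Of the 13 regulators, 8 were lower and 1 higher in WT Paneth cells (26.7% and 24.0% of all genes), led by the gluconeogenic coactivator Ppargc1a (-2.72 ± 0.25, adjusted p = 2.80e-07) and the fatty acid sensor Ppara (-1.79 ± 0.30, adjusted p = 0.000159). In GRKO non-Paneth cells Ppargc1a fell by 1.47 ± 0.22 (adjusted p = 0.000141) and the hypoxia inducible factor subunit Epas1 fell by 1.01 ± 0.25 (adjusted p = 0.00539).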

How the data were processed

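RNA of sorted crypt cells was sequenced as single-end reads from a stranded library kit in 12 libraries. The extraction kit is named differently in the sample records and in the methods, and the genotype field of the records goes against the titles, from which genotypes were taken here. The authors trimmed reads with Trimmomatic 0.39, aligned them with STAR 2.7.10a to mm39 and deposited the raw counts per gene that STAR gives for uniquely mapped reads, as whole numbers without normalization. All 12 columns of counts were used (0 not used), and 665 of 55414 gene IDs had no symbol in the annotation used here, which may not be the release the authors used.

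Genes were filtered with filterByExpr, which left 13057, and then scaled by TMM. All 4 groups were fitted in 1 model with edgeR 4.0.16 (quasi-likelihood test, R 4.3.3), without a replicate term, with Benjamini-Hochberg adjustment over all genes tested and a false discovery rate of 5%. The comparisons were Paneth against non-Paneth cells in each genotype, GRKO against WT in each fraction, and their interaction. On simulated counts for 13057 genes, 90% of genes changed 4-fold between GRKO and WT non-Paneth cells were recovered, and 80% for the interaction. At a log2 change of 1, recovery was 78% between GRKO and WT non-Paneth cells and 38% for the interaction. Among the members called in the interaction, only Pfkfb3 (2.47) exceeded a log2 change of 2, so the 80% does not apply to the others. Replicate numbers in the titles paired the fractions of WT mice, since same-numbered libraries deviated together (r = 0.349, 0.229 and 0.238, all above a limit of 0.1). The p-values of the main fit, between the WT fractions and for the interaction, do not use this pairing, and those of the replicate block do. For the fractions of GRKO mice r was 0.0129, 0.262 and 0.465. Replicate 1 there was below the limit, so these fractions were not counted as paired, though the other values leave a pairing open. The groups compared between genotypes did not pass the limit in every replicate either. No pair of libraries in a group agreed within sampling noise. Isozyme shares were computed from CPM per kilobase of canonical transcript with Python 3.11.15 and pandas 2.3.3.

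The members and the other gene lists were chosen with earlier results of these data known, so their counts are descriptions. Values per library are given for members called in a comparison of genotypes or in the interaction and for the 10 members with the largest difference between the WT fractions, and for each other list the 2 called genes with the largest difference, of which 1 gene is not reported here. Alternatives were DESeq2 1.42.0, relative log expression factors, library totals, TMM without Lyz1 and Defa genes, 2 other filters, a false discovery rate of 1%, a block on the replicate number, separate fits for each comparison, leaving out each library and, chosen after seeing the data, union exon lengths.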

Additional observations from a re-analysis of the deposited data

Results flagged for a closer look

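For 13 members the effect of the deletion differed between Paneth and non-Paneth cells by the interaction term (edgeR's quasi-likelihood test, adjusted over all genes tested). Values are the log2 fold change of GRKO against WT in Paneth minus that in non-Paneth cells. Regulators of flux gave Pfkfb3 at 2.47 ± 0.74 (adjusted p = 0.048), Pfkfb4 at 1.68 ± 0.31 (adjusted p = 0.00285) and Pdk2 at 1.14 ± 0.24 (adjusted p = 0.00536). Isozymes of the upper steps gave Hkdc1 at 1.65 ± 0.47 (adjusted p = 0.0332), Pfkp at 1.42 ± 0.36 (adjusted p = 0.0175) and Aldoc at 1.23 ± 0.39 (adjusted p = 0.0395). The lower steps gave Gapdh at 0.75 ± 0.19 (adjusted p = 0.0129), Eno1 at 0.75 ± 0.23 (adjusted p = 0.0333) and Pkm at 0.81 ± 0.22 (adjusted p = 0.0193). Fbp2 was at 0.66 ± 0.22 (adjusted p = 0.0453), Pgm1 at 0.80 ± 0.16 (adjusted p = 0.00439), Pgm2 at 0.83 ± 0.21 (adjusted p = 0.0147) and Pck2 at -0.78 ± 0.20 (adjusted p = 0.0154).

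For 10 of the 12 positive members the estimate was above 0 in Paneth and below 0 in non-Paneth cells. These members were picked for a positive interaction, which favours such signs, so the pattern is no separate result. Of their Paneth estimates only that of Pgm1 was called. Some were small, as for Pdk2 (53.3 CPM in GRKO and 52.8 CPM in WT Paneth cells), Eno1 (0.14 ± 0.16) and Gapdh (0.17 ± 0.13). Others were larger, as for Pfkp (0.71 ± 0.26, and -0.71 ± 0.25 in non-Paneth cells) and Pfkfb3 (1.39). For Fbp2 (-0.20 ± 0.15 and -0.86 ± 0.15) and Pfkfb4 (-0.28 ± 0.23 and -1.96 ± 0.21) both estimates were below 0. Leaving out 1 library ended the call of Hkdc1 without GRKO Paneth replicates 2 or 3, GRKO non-Paneth replicates 2 or 3, WT Paneth replicates 1 or 3 or WT non-Paneth replicates 1 or 2 (adjusted p from 0.0507 to 0.0832), Aldoc without GRKO Paneth replicates 1, 2 or 3, GRKO non-Paneth replicates 1, 2 or 3, WT Paneth replicate 3 or WT non-Paneth replicate 1 (adjusted p from 0.0531 to 0.091), Eno1 without GRKO Paneth replicates 1 or 2, GRKO non-Paneth replicates 2 or 3, WT Paneth replicates 1 or 3 or WT non-Paneth replicate 3 (adjusted p from 0.0502 to 0.093), Pkm without GRKO Paneth replicate 2 (adjusted p = 0.0556), Fbp2 without GRKO Paneth replicates 1 or 2, GRKO non-Paneth replicates 1, 2 or 3, WT Paneth replicates 1 or 3 or WT non-Paneth replicates 1 or 2 (adjusted p from 0.0626 to 0.0942), Pck2 without WT non-Paneth replicate 2 (adjusted p = 0.0501) and Pfkfb3 without GRKO Paneth replicates 1 or 2, GRKO non-Paneth replicates 1, 2 or 3, WT Paneth replicates 1, 2 or 3 or WT non-Paneth replicates 2 or 3 (adjusted p from 0.0659 to 0.106). The call of Hkdc1 was also lost with the replicate block (adjusted p = 0.0582). Without WT Paneth replicate 2 the value of Hkdc1 was 2.23.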

How the results depend on the processing

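The numbers of members called between the fractions, 30 in WT and 23 in GRKO mice, stayed within 1.5 times under every alternative (28 to 30 and 18 to 21 with 1 library left out, 34 and 34 with library totals). In GRKO against WT Paneth cells, 1 member was called, against 0 at a false discovery rate of 1%, 6 with DESeq2, 0 with library totals, 9 without the filter, 2 with at least 10 counts in every library of 1 group, 0 with only the groups compared, 0 with the replicate block and 0 to 3 with 1 library left out. In GRKO against WT non-Paneth cells 20 became 10 at a rate of 1%. In the interaction 13 became 3 at a rate of 1%, 7 with library totals and 7 to 14 with 1 library left out. The count over all genes moved likewise, from 5116 to 10785 between the GRKO fractions with library totals, from 420 to 1421 with DESeq2, 1780 without the filter, 2 with library totals and 0 at a rate of 1% or with only the groups compared in Paneth cells, from 4869 to 3002 in non-Paneth cells and from 2445 to 955 in the interaction at a rate of 1%, and to 1562 there without WT non-Paneth replicate 2. The causes were not tested.

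The value of Pgls between the WT fractions reversed, to -0.18 with library totals, where scaling moved the median of all genes by more than that value. Of the members called, 24 of 30 and 17 of 23 were kept in every alternative between the fractions, 0 of 1 in Paneth cells, 5 of 20 in non-Paneth cells (Fbp2, G6pc1, Khk, Pdk2 and Pfkfb4) and 2 of 13 in the interaction (Pdk2 and Pfkfb4). With library totals, calls were higher in 0% of 34 members between the WT fractions against 13.3% of 30 with TMM (all genes 12.2% against 47.3%), and in 63.2% of 19 against 20.0% of 20 in non-Paneth cells (all genes 74.6% against 46.9%). The call of Fbp2 between the GRKO fractions was lost in 5 alternatives besides those leaving out a library. The replicate block, whose numbers pair only the WT fractions by the rule used, gave 31 members called between the WT and 25 between the GRKO fractions. It gave 0 in Paneth cells, 21 in non-Paneth cells and 16 in the interaction. In the interaction it ended the call of Hkdc1 (adjusted p = 0.0582), while Pck1, Khk, Pdk4 and Pgls were called. Between genotypes a shared number joins libraries of different mice, so calls lost or gained there do not show how firm a result is. In non-Paneth cells this holds among others for Pck1, which was lost (adjusted p = 0.225), and Hk1, which was gained (adjusted p = 0.00331). The counts of calls kept in every alternative still include this block. Without the filter adjusted p became far smaller for members with a wide spread, such as Pck1 in non-Paneth cells at 1.37e-43, so calls gained there are not relied on. Depth limited Ldhb, at 11 counts or fewer per library, and G6pc1 in Paneth cells.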
